A study of Mus musculus with 12 samples.

Results

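Voltage-gated sodium channel subunit genes were followed through whole trigeminal ganglia of adult mice in which the transcriptional regulator Prdm12 had been deleted 1 month earlier. The 9 genes were taken by symbol from a fixed list and not by a rule on measured values. The list was, however, drawn up with earlier results of these data known. They were 6 alpha subunit genes (Scn1a, Scn3a, Scn8a, Scn9a, Scn10a and Scn11a) and 3 beta subunit genes (Scn2b, Scn3b and Scn4b), of 55416 gene identifiers in the deposited files. Sodium channel genes outside this list are not analysed here. All 9 passed the filter on low counts.

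The series compared 6 inducible knockout (iKO) animals with 6 controls, all of strain C57Bl6 and labelled adult. All iKO animals had the genotype Rosa26Cre ERT2; Fl/Fl and received tamoxifen, which lets the Cre recombinase enter the nucleus and remove the floxed part of Prdm12. Control 1 was Rosa26Cre ERT2; Fl/+, controls 2 and 3 were +/+; Fl/+, and control 4 was Rosa26Cre ERT2; +/+, and these 4 animals also received tamoxifen. Controls 5 and 6 were Rosa26Cre ERT2; Fl/Fl, as the iKO animals were, and received corn oil. The controls therefore mixed genotypes and injections, and 4 of them carried the Cre allele. The iKO animals were 3 females and 3 males, and the controls were 2 females and 4 males. The Rosa26 locus is active in most cell types, so that deletion is not limited to neurons. Nothing in the labels says whether 1 library is 1 animal's ganglia or a pool, and p-values measure the spread between these libraries.

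Voltage-gated sodium channels carry the inward current that starts and propagates the action potential. An alpha subunit forms the pore, and beta subunits, which are small membrane proteins of the immunoglobulin superfamily, bind it and modify its gating and its placing in the membrane. Sensory ganglia hold an unusual set of alpha subunits. Groups of them are told apart by the pufferfish toxin tetrodotoxin, and the resistant group, encoded by Scn10a and Scn11a, is found mainly in nociceptors, the neurons that sense painful stimuli.

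Total counts ran from 13207526 to 24178970 per library. Prdm12 itself ran from 13.2 to 19.2 CPM (reads of a gene relative to all reads of its library, scaled with the TMM method) in the iKO libraries and from 56.9 to 133 CPM in the controls, without overlap (exact permutation test on mean log2 CPM with a fixed offset, p = 0.00216, two-sided, which is the smallest value 924 assignments allow). All 18 listed genes of sensory neurons in general and all 16 listed genes of nociceptors were measured in every library. The summed level of oligodendrocyte and astrocyte genes ran from 251 CPM in control 4 to 3016 CPM in control 6 among the controls. It ran from 274 to 1113 CPM in iKO. Control 6 also had the highest sums of myelinating Schwann cell genes (controls 8686 to 16350 CPM) and satellite glia genes (4348 to 7512 CPM) among the controls and the lowest sum of sensory neuron genes, at 21281 CPM. Skeletal muscle genes summed to 1204 CPM in iKO 5 and to between 78.7 and 294 CPM in the controls.

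To set the genes beside each other, CPM was divided by the length of all exons of the gene in kilobases. On this scale of level, the highest of the 9 was Scn4b, a beta subunit gene known for a cytoplasmic peptide that blocks the open channel and gives rise to resurgent current, at 140.1 ± 12.7 CPM per kb (mean ± SD, n = 12). Next came Scn10a at 101 ± 10.8 and Scn11a at 66.4 ± 6.11 CPM per kb. Scn9a, which encodes the channel that amplifies small depolarisations and whose loss in humans causes insensitivity to pain, stood at 42.2 ± 4.09 CPM per kb. Each of these 4 genes was above the next one in 12 of 12 libraries on this scale. The order rests on the lengths. Without the division, Scn10a averaged 804 CPM and Scn4b 698 CPM, and Scn9a averaged 539 CPM and Scn11a 394 CPM.

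The middle of the order was less separated. Scn1a, whose channel is found in myelinated mechanosensory neurons, measured 24.6 ± 2.56 CPM per kb. Scn8a, which encodes the main channel of the nodes of Ranvier, measured 21.7 ± 1.80 CPM per kb. Scn1a was the higher of this pair in 11 of 12 libraries, while without the division by length Scn8a averaged 342 CPM and Scn1a 274 CPM. Scn3b and Scn2b overlapped in level over the 12 libraries, with 16.1 ± 0.961 and 14.7 ± 3.94 CPM per kb. On this scale their order was not the same in the groups. Scn3b was the higher in 2 of 6 controls, at 16.3 ± 0.990 CPM per kb beside 17.4 ± 3.10 for Scn2b, and in 6 of 6 iKO libraries, at 15.99 ± 1.005 beside 11.9 ± 2.54. Without the division by length, Scn3b averaged higher in both groups, at 88.8 beside 81.0 CPM in controls and 87.3 beside 55.5 CPM in iKO. The ratio of the 2 genes overlapped between the groups. Scn3a, the channel gene of embryonic neurons that is switched on again after nerve injury in rats, came last at 0.799 ± 0.174 CPM per kb, and its lowest library still held 130 reads. The lengths came from an annotation of an older genome build, and a gene whose ganglion transcripts leave out annotated exons would be set too low.

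Variation between libraries also set the genes apart. The coefficient of variation of CPM over the 12 libraries was 26.9% for Scn2b and 21.7% for Scn3a. It was 5.96% for Scn3b and lay between 8.30% and 10.7% for the other 6 genes.

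**Figure D1:**
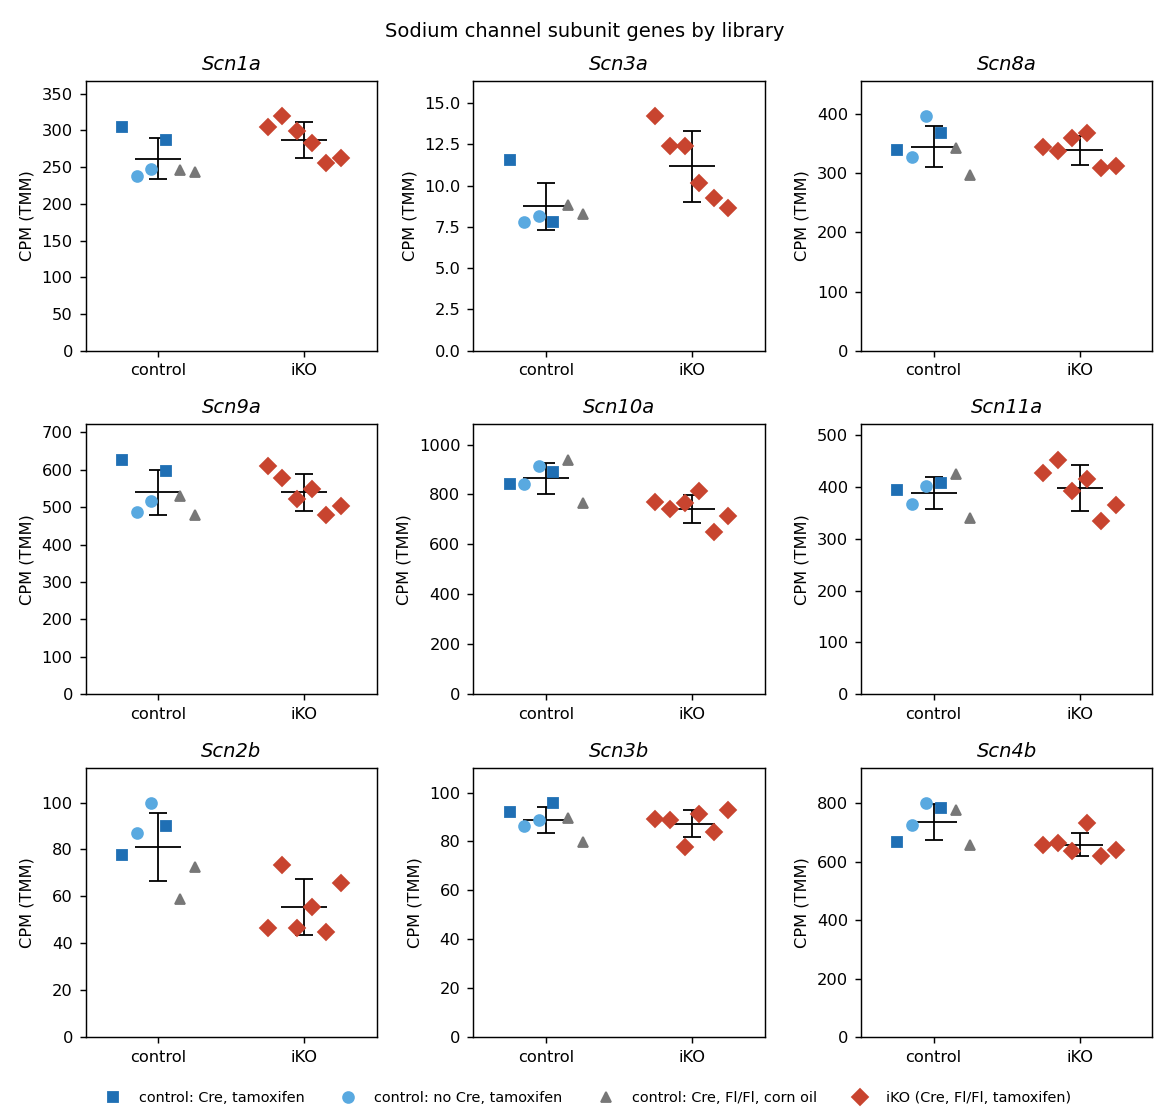
Level of each sodium channel subunit gene in each library, as TMM-scaled CPM on a linear axis that starts at 0. Each point is 1 library, marked by genotype and injection, and the black bars are the group mean ± SD (n = 6 each). The groups overlap for all 9 genes, and the iKO points for Scn10a, Scn2b and Scn4b lie below the control mean.

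None of the 9 genes had groups that did not overlap, beside 1.2% of all genes, and none passed the threshold between iKO and control over the 12 libraries (edgeR quasi-likelihood test with sex as a covariate, Benjamini-Hochberg adjusted p under 0.05 over 16637 genes). Of all genes tested, 63 (0.379%) passed. The unadjusted p was under 0.05 for 4 of the 9 (Scn2b, Scn10a, Scn3a and Scn4b), beside 10.9% of all genes. The median log2 fold change of the 9 was -0.020, beside 0.0011 for all genes, with 6 of them below 0 and 3 above. The 95% interval of the fold change lay within 1.5-fold of no change for 8 of the 9 genes, the exception being Scn2b.

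Scn10a, the main tetrodotoxin-resistant channel of nociceptor firing, measured 766, 865 and 940.0 CPM in the lowest, median and highest control and 648, 753 and 813 CPM in the lowest, median and highest iKO library. All 6 iKO libraries were below the control median, but iKO 1 and iKO 4 were above control 6. The fitted difference was -14.3%, a log2 fold change of -0.22 ± 0.0643 (SE), with a 95% interval of -0.36 to -0.083 and an adjusted p of 0.184 in edgeR (unadjusted p = 0.00436). It did not pass in that test. DESeq2 gave an adjusted p of 0.0316, and edgeR with libraries scaled to the summed counts of sensory neuron genes gave 0.0467 at a log2 fold change of -0.22. Of 25 alternative settings, only these 2 were under the threshold. The adjusted p was 0.185 in limma-voom and 0.276 in edgeR on tamoxifen-injected animals only.

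Scn11a, which lies next to Scn10a in the genome and encodes a channel with a persistent current near the resting potential, measured 339.9, 398 and 424 CPM in the controls (lowest, median and highest) and 334, 404 and 453 CPM in iKO. The ranges overlapped, and iKO 2 was the highest of the 12 libraries. The log2 fold change was 0.016, with a 95% interval of -0.15 to 0.18 and an adjusted p of 0.96 in edgeR.

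Among the tetrodotoxin-sensitive channels, Scn9a ran from 478 to 627 CPM in controls, with a median of 523 CPM, and from 479 to 611 CPM in iKO, with a median of 534 CPM. Scn8a ran from 297 to 396 CPM in controls and from 309 to 368 CPM in iKO, with medians of 341 CPM in both. For both genes the fitted difference was smaller than its standard error, with log2 fold changes of -0.020 ± 0.0745 for Scn9a and -0.028 ± 0.0715 for Scn8a. The sign of both turned under other settings. An antisense gene, Gm13629, shares 180 exon bases (1.41% of the exon length) with Scn9a, and because strand was not recorded, its reads there cannot be told apart from those of Scn9a.

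Scn1a and Scn3a were the genes with iKO values on the upper side. Scn1a measured 238, 247 and 305 CPM in the lowest, median and highest control and 255, 291 and 319 CPM in iKO. Scn3a measured 7.80, 8.20 and 11.6 CPM in controls and 8.64, 11.2 and 14.2 CPM in iKO. For both genes all 6 iKO libraries were above the control median while the groups still overlapped, Scn3a because control 1 stood at 11.6 CPM and the other controls at 7.80 to 8.84 CPM. The log2 fold change was 0.11 ± 0.0664 for Scn1a (adjusted p = 0.596 in edgeR) and 0.28 ± 0.104 for Scn3a (adjusted p = 0.335 in edgeR). Without control 2 these were 0.043 for Scn1a and 0.17 for Scn3a, and without control 1 they were 0.15 and 0.34.

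Scn2b, whose product is tied to the alpha subunit by a disulfide bond, had the widest difference of the 9. It measured 59.03, 82.4 and 99.9 CPM in the lowest, median and highest control and 44.7, 51.2 and 73.3 CPM in iKO. All 6 iKO libraries were below the control median and below each of the controls 1 to 4. The groups overlapped through controls 5 and 6, at 59.03 and 72.4 CPM, and iKO 2 and 6, at 73.3 and 65.9 CPM. The fitted difference was -31.8%, a log2 fold change of -0.55 ± 0.150 (SE) with a 95% interval of -0.88 to -0.23, and it did not pass in edgeR (adjusted p = 0.151, unadjusted p = 0.0028). DESeq2 gave an adjusted p of 0.0198, and edgeR without the filter on low counts gave 0.031. The other settings among 25 alternatives did not pass, with only these 2 under the threshold. Limma-voom gave 0.143, and edgeR on tamoxifen-injected animals only gave 0.0953.

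Scn4b, the neighbour of Scn2b in the genome, measured 658, 752 and 802 CPM in the lowest, median and highest control and 622, 649 and 733 CPM in iKO. All 6 iKO libraries were below the control median, while iKO 2 and iKO 4 were above the lowest control and iKO 1 was level with it at 658 CPM. The log2 fold change was -0.15 ± 0.0597 (adjusted p = 0.388 in edgeR). Scn3b, whose product binds the alpha subunit without a disulfide bond, ran from 79.8 to 95.8 CPM in controls and from 77.9 to 92.7 CPM in iKO. Its log2 fold change of -0.019 had the narrowest interval of the 9, from -0.14 to 0.10.

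Whole ganglia were sequenced, so that fewer neurons of a type and less RNA per neuron cannot be told apart in any of these values. Over the 12 libraries, sensory neuron genes had a median log2 fold change of 0.0017, with 0 of 18 called. Of 16 nociceptor genes, 1 was called higher, the CGRP gene Calcb at 0.63, and 1 was called lower, with 11 of the 16 estimates below 0 and a median of -0.17. Of 16 genes of large myelinated sensory neurons 0 were called, with a median of 0.033. The 14 oligodendrocyte and astrocyte genes had a median log2 fold change of -0.98 with 0 called, and 2 of them, Opalin and Olig2, were at 0 in some libraries. The 5 of 10 brain neuron genes that were tested had a median of -0.32 with 0 called. Of 12 fibroblast and meninges genes 4 were called lower, with a median of -0.57, and of 12 skeletal muscle genes tested 0 were called, with a median of 1.27. The part of these cell types in the values of the sodium channel genes was not tested. Without control 6, iKO 5 and iKO 6, the libraries with the highest glial or muscle sums (chosen after seeing the data), the log2 fold change was -0.57 for Scn2b and -0.15 for Scn10a.

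**Figure D2:**
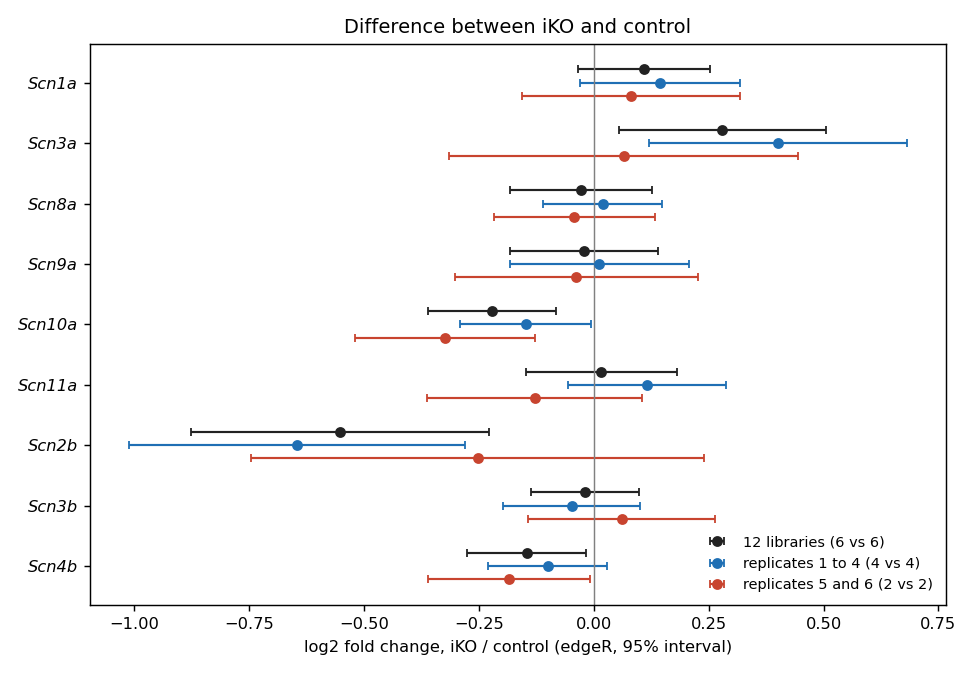
Log2 fold change of each gene, iKO over control, from edgeR with sex as a covariate; points are estimates and bars their 95% intervals. Black shows the 12 libraries, blue replicates 1 to 4 and red replicates 5 and 6, and no gene passed the adjusted threshold in any of the 3; Scn2b has the lowest estimates in black and blue and Scn10a in red.

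Promoters are given for 2 of the 3 pairs of members that are neighbours in the genome, Scn10a with Scn11a and Scn2b with Scn4b. The promoters of Scn1a and Scn9a, which also differed in level (24.6 and 42.2 CPM per kb), are not printed. Each run is the 250 bases before the transcription start, 5′ to 3′ along the gene, from RefSeq on build GRCm38.p6, and the capitals mark CG dinucleotides. Scn10a lies on the minus strand (chr9:119719033-119719282), as does Scn11a (chr9:119825457-119825706). Scn2b (chr9:45117626-45117875) and Scn4b (chr9:45138374-45138623) lie on the plus strand.
Scn10a promoter: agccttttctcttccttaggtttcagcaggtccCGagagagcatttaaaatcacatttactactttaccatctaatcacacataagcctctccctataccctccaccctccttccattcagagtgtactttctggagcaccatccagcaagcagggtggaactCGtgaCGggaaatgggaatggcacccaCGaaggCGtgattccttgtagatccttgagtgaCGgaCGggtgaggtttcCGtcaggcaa
Scn11a promoter: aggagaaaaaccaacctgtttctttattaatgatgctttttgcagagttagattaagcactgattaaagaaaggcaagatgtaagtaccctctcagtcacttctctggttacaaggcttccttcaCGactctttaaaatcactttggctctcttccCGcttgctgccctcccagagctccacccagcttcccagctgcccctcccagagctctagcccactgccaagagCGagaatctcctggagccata
Scn2b promoter: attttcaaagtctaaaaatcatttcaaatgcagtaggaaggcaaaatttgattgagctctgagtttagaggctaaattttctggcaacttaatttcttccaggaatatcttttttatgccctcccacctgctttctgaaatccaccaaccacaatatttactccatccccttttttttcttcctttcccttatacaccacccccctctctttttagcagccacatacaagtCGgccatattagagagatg
Scn4b promoter: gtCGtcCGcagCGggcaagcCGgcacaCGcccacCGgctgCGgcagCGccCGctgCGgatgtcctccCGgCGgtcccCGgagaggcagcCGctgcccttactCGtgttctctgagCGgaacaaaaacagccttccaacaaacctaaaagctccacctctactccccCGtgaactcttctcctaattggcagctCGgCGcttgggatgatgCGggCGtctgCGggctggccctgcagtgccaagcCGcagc
The contrast within the beta pair was the larger. The Scn4b window held 23 CG dinucleotides at 66.0% G and C, while the Scn2b window held 1 CG dinucleotide at 38.4%. The Scn10a and Scn11a windows held 8 and 3 at 49.6% and 48.0%. The median over 32851 mouse promoters was 6 CG dinucleotides and 52.4%. Windows were found for 7 of the 9 genes, Scn8a having 2 starts. The motifs searched on both strands in them were the TATA box (TATAAA, in 12.4% of all promoters), the core bound by RUNX factors (TGTGGT, in 14.0%) and a homeodomain core (TAATTA, in 4.84%). The 1 match was a RUNX core in the Scn2b window, read there as its reverse complement ACCACA. A match of letters is a description and not a measured site.

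The mixture of alpha transcripts was described as each gene's share of the summed CPM per kb of the 6 alpha genes. Scn10a made up 41.4% ± 1.52 in controls and 37.2% ± 1.35 in iKO (mean ± SD, n = 6 each). The control shares ran from 38.95% to 42.8% and the iKO shares from 35.0% to 38.6%, so that the groups did not overlap. How often such a share separates the groups in other sets of genes was not counted. The 6 shares of a library depend on each other, and Scn10a in CPM overlapped between the groups. Scn11a made up 25.0% ± 0.507 in controls and 26.7% ± 1.08 in iKO, and the groups overlapped through control 5, at 25.97%. Scn10a and Scn11a together gave 66.4% ± 1.89 and 63.9% ± 0.759. The share of Scn1a was 8.94% ± 0.808 in controls and 10.3% ± 0.437 in iKO. Scn9a (16.1% and 16.9%), Scn8a (8.33% and 8.58%) and Scn3a (0.268% and 0.356%) filled the rest. The summed level was 262 ± 18.0 CPM per kb in controls and 251 ± 19.99 in iKO, a difference smaller than either SD.

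Ratios between genes of the same library do not depend on how libraries are scaled. The ratio of Scn10a to Scn11a in CPM per kb was 1.66 ± 0.0468 in controls and 1.40 ± 0.0979 in iKO. It ran from 1.59 to 1.71 in controls and from 1.22 to 1.46 in iKO, without overlap. Of the 36 ratios between pairs of the 9 genes, 2 had groups that did not overlap, Scn10a to Scn11a and Scn8a to Scn10a. Among the 73780878 pairs that can be made from genes averaging 5 CPM or more, the groups did not overlap in 1.47%. Both of the separated ratios contain Scn10a and so are not independent of each other. The ratio of Scn4b to Scn2b was 8.71 ± 1.80 in controls and 11.5 ± 2.11 in iKO, with overlap. The ratios were not tested between the groups, and a ratio that differs does not show which of its genes changed.

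**Figure D3:**
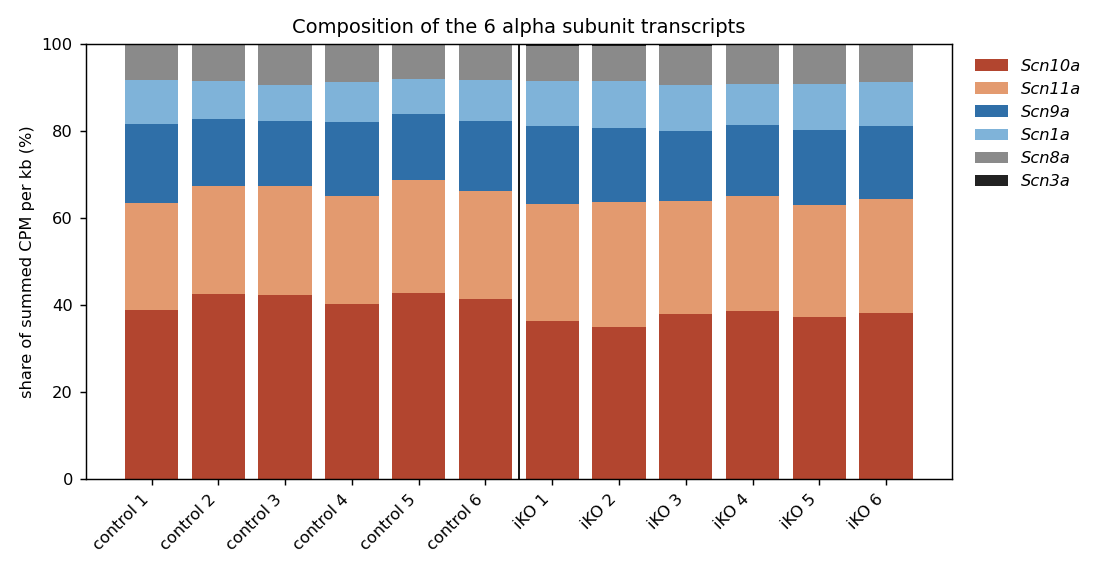
Share of each alpha subunit gene in the summed CPM per kb of the 6 alpha genes, in percent, with 1 bar per library. Controls are left of the black line and iKO right of it. The lowest segment, Scn10a, takes 38.95% to 42.8% in controls and 35.0% to 38.6% in iKO.

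Replicates 1 to 4 and replicates 5 and 6 were also compared apart. Prdm12 was lower in iKO in both, with log2 fold changes of -2.67 and -2.49. Neither comparison therefore gives the effect of genotype or of injection apart from the loss of Prdm12. In replicates 1 to 4 all animals received tamoxifen and the groups differed in genotype, and in replicates 5 and 6 all had the same genotype and the groups differed in injection. In replicates 1 to 4, 0 of the 9 genes passed, beside 0.114% of all genes (edgeR), and 3 had an unadjusted p under 0.05, beside 7.93%. In replicates 5 and 6, 0 of the 9 passed, beside 0.00601% of all genes, and 2 had an unadjusted p under 0.05, beside 7.87%. Prdm12 itself did not pass there (adjusted p = 0.0509 in edgeR), and its log2 fold change was -1.77 without control 5 and -2.99 without control 6. The absence of calls in replicates 5 and 6 therefore cannot be read as an absence of differences.

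Scn2b measured 77.8, 87.1, 99.9 and 89.9 CPM in controls 1 to 4 and 46.4, 73.3, 46.8 and 55.7 CPM in iKO 1 to 4, without overlap. In replicates 5 and 6 it measured 59.03 and 72.4 CPM in controls and 44.7 and 65.9 CPM in iKO. The log2 fold change was -0.65 ± 0.166 in the first set (adjusted p = 0.269 in edgeR) and -0.25 ± 0.225 in the second. The second value rested on single libraries, at -0.56 without iKO 6, -0.40 without control 5, -0.10 without control 6 and -0.010 without iKO 5, where the lone library left in a group is assumed to vary like the others. The corn oil controls were the lowest controls for Scn2b.

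Scn10a measured 840.5, 843, 914 and 888 CPM in controls 1 to 4 and 772, 741, 765 and 813 CPM in iKO 1 to 4. In replicates 5 and 6 it measured 940.0 and 766 CPM in controls and 648 and 715 CPM in iKO, and the groups overlapped in neither set. The log2 fold change was -0.15 ± 0.0652 in the first set (adjusted p = 0.608 in edgeR) and -0.32 ± 0.0891 in the second (adjusted p = 0.53). The second value was -0.47 without control 6 and -0.18 without control 5.

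Scn3a measured 11.6, 7.80, 8.15 and 7.80 CPM in controls 1 to 4 and 14.2, 12.4, 12.4 and 10.1 CPM in iKO 1 to 4. It measured 8.84 and 8.25 CPM in the corn oil controls and 9.22 and 8.64 CPM in iKO 5 and 6. The log2 fold change was 0.40 ± 0.128 in replicates 1 to 4 (adjusted p = 0.408 in edgeR) and 0.065 ± 0.173 in replicates 5 and 6. When 1 library was left out, the first ran from 0.25 without control 2 to 0.55 without control 1. The second ran from 0.0032 without iKO 5 to 0.11 without iKO 6. The groups did not overlap for 2 of the 9 genes in replicates 1 to 4 (Scn10a and Scn2b), beside 3.89% of all genes, and for 3 of the 9 in replicates 5 and 6 (Scn10a, Scn4b and Scn1a), beside 40.7% of all genes. The difference between the sets was tested directly and no gene of the series passed in edgeR (0 of 16637, 0% of genes, with 568 genes, 3.41%, at an unadjusted p under 0.05, and 5 called by DESeq2). None of the 9 had an unadjusted p under 0.05 in that test.

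Control 1 and control 4, which carried Cre and received tamoxifen without losing both Prdm12 alleles, were compared with the other controls after their values had been seen. Scn1a measured 305 and 287 CPM in these 2 and 238 to 248 CPM in the other 4, without overlap, and the iKO libraries, which share Cre and tamoxifen, ran from 255 to 319 CPM. Scn9a measured 627 and 596 CPM in these 2 and 478 to 530.0 CPM in the others. Scn3b did not overlap either, at 91.9 and 95.8 CPM in these 2 and 79.8 to 89.7 CPM in the others. The share of all genes that separate these controls in this way was not counted. The log2 differences were 0.25 ± 0.0716 for Scn1a and 0.26 ± 0.0860 for Scn9a, with adjusted p of 0.762 for both in edgeR (unadjusted p = 0.0046 and 0.0108). In this comparison 0 genes of the series passed (0% of genes, with 1057 genes, 6.35%, at an unadjusted p under 0.05). A term for Cre with tamoxifen was then added to the fit over 12 libraries, which sets the iKO libraries against controls 1 and 4. As Scn1a and Scn9a had been seen to be high in these 2, lower estimates for both genes follow from the choice of term. The log2 fold change between iKO and control was -0.047 ± 0.0667 for Scn1a and -0.18 ± 0.0796 for Scn9a. It was -0.60 ± 0.210 for Scn2b and -0.22 ± 0.0910 for Scn10a, and none of them passed (adjusted p of 0.788 or more in edgeR).

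By sex, 0 of the 9 genes passed, beside 0.108% of all genes (edgeR, with group as a covariate), and 2 had an unadjusted p under 0.05, beside 10.2%. Scn3a measured 11.7 ± 2.37 CPM in 5 females and 8.72 ± 0.780 CPM in 7 males. The log2 difference of males from females was -0.36 ± 0.105 (adjusted p = 0.443 in edgeR). Within iKO the 3 females ran from 12.4 to 14.2 CPM and the 3 males from 8.64 to 10.1 CPM, without overlap, while the 2 control females stood at 11.6 and 7.80 CPM and the 4 control males at 7.80 to 8.84 CPM. All 5 females were among replicates 1 to 4 and the 4 animals of replicates 5 and 6 were male, so the difference of Scn3a by sex and that between the replicate sets rest largely on the same animals. Scn1a measured 293 ± 31.7 CPM in females and 261 ± 17.8 CPM in males, a log2 difference of -0.15 ± 0.0672 (adjusted p = 0.487 in edgeR). It too was without overlap within iKO, at 299 to 319 CPM in females and 255 to 283 CPM in males. Its control females (238 to 305 CPM) and control males (244 to 287 CPM) overlapped. The share of all genes that separate the sexes within iKO was not counted. All 6 alpha genes had estimates below 0, from -0.36 to -0.0049, and the sign of Scn8a and Scn10a turned under other settings.

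Sodium channels work with a set of partners that anchor, traffic and modulate them, among them ankyrins and spectrins that anchor channels at the axon initial segment and the node, contactins, fibroblast growth factor homologues that bind the channel's tail, and ubiquitin ligases that remove channels from the membrane. Of 25 such genes, 0 passed over the 12 libraries, with 16 estimates below 0 and 9 above and a median log2 fold change of -0.031. Among the 4 with the smallest p were Cntn2, Fgf13 and Ank2. Cntn2, a contactin of the region beside the node, averaged 348 CPM over the controls and 274 CPM over the iKO libraries. Its log2 fold change was -0.32 ± 0.0619, with an adjusted p of 0.0511 in edgeR. Its adjusted p was under the threshold with DESeq2's size factors in edgeR (0.0492), library totals (0.0479), a stricter filter (0.0448), no filter (0.0204) and DESeq2 (0.000121), and without control 4 (0.0358) or iKO 3 (0.049). Over 25 alternatives the adjusted p of Cntn2 ranged from 0.000121 to 0.88, and only these 7 were under the threshold. It was 0.174 in edgeR on tamoxifen-injected animals only and 0.0524 in limma-voom. The groups overlapped, with control 1 at 300 CPM and iKO 4 at 304 CPM. Fgf13, which encodes a growth factor homologue that binds the channel tail, was at -0.13 and Ank2, an ankyrin gene, at -0.088 on the log2 scale.

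The 9 genes differed in the pattern of their levels across the libraries. Likeness was measured as the mean absolute difference of the z-scored log2(CPM + 0.5) over the 12 libraries, with 0 for the same pattern. Among the 36 pairs of the 9 genes, Scn10a and Scn4b were the most alike at 0.369, followed by Scn1a and Scn3a at 0.425 and Scn1a and Scn9a, which are neighbours in the genome, at 0.522. The neighbours Scn2b and Scn4b stood at 0.716 and the neighbours Scn10a and Scn11a at 0.82. The least alike pair was Scn3a and Scn4b at 1.46. For comparison, the median distance of a member from all 11706 candidate genes lay between 1.06 and 1.14. All genes of a library share its depth, scaling and mixture of cells, so these distances are a description.

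**Figure D4:**
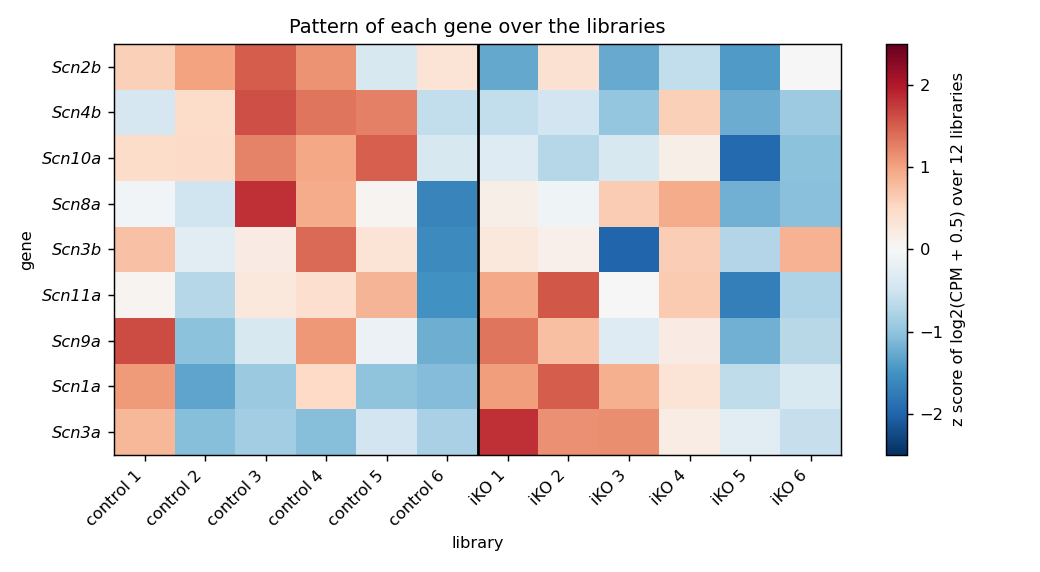
Pattern of each gene over the 12 libraries, as the z score of log2(CPM + 0.5), with red above and blue below the gene's own mean. Controls are left of the black line and iKO right of it. Scn2b, Scn4b and Scn10a, in the upper 3 lines, are mostly red in controls, while Scn1a and Scn3a, in the lowest 2, are mostly red in iKO 1 to 4.

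Outside the family, the genes nearest to Scn10a were Aff3 at 0.234, Cyfip2 at 0.25 and Cds2 at 0.268. Those nearest to Scn4b were Nptx1 at 0.132, Arl8a at 0.198 and Larp1 at 0.221. Scn1a was nearest to Rapgef6 at 0.187 and Zyg11b at 0.235. Scn9a was nearest to Kidins220 at 0.228, Prkg1 at 0.246 and Armh4 at 0.252. Scn11a was nearest to Ebf3 at 0.234, Erc2 at 0.256 and Kif5c at 0.26. Scn8a was nearest to Zswim5 at 0.281, Ubap2l at 0.307 and Ap3s2 at 0.308, and Scn3a to Fat3 at 0.267, Itga6 at 0.273 and Bod1l at 0.281. Scn3b was nearest to Ccdc68 at 0.279, Ctsl at 0.32 and Stmn2 at 0.383. Scn2b had no gene closer than Kcnmb1 at 0.404, Nfkbie at 0.404 and Rad21 at 0.433, so that it was the member with the most distant nearest gene.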

How the data were processed

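Polyadenylated RNA of trigeminal ganglia was sequenced from unstranded TruSeq libraries, per the labels' protocols. Build GRCm39 and the tools featureCounts 2.0.1, STAR 2.7.8a and bcl2fastq 2.20.0.422 come from the submitters' processing notes. The values deposited by the authors are raw read counts per gene, 1 file per library, with no normalization. How overlapping and multiply mapped reads were counted, and with which annotation release, is not given in the sources used here.

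Of the 55416 identifiers, 3333 (0.274% of the counts) had no symbol in the reference tables. Exon lengths came from a GRCm38 annotation and are lengths only. Counts were tested with edgeR 4.0.16 (quasi-likelihood test) in R 4.3.3, after filterByExpr by group (16637 genes kept) and TMM scaling (factors 0.969 to 1.02), with sex as a covariate. Adjustment was Benjamini-Hochberg over every gene tested, at a threshold of 0.05. The replicate sets were contrasts in 1 fit over the 12 libraries. The standard error is the size of the log2 fold change over the square root of F. A level is TMM-scaled CPM, and intervals cover counting and library spread only as the fit models it. Counts of the 30 same-group pairs of libraries differed by 7.77 to 28.8 times the sampling noise (chi-square over its degrees of freedom), so none of these pairs was 1 library deposited again. Pairs of a control and an iKO library were not compared.

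The members and lists were chosen with earlier results of these data known. The genes named are Prdm12, the 9 members, the 4 partner genes with the smallest p where none passed, at most 2 genes of each marker list, and the 3 genes nearest in pattern to each member with a mean of at least 5 CPM. Some genes that this rule takes are not reported here. Alternatives were other scalings, filters and covariates, limma-voom (limma 3.58.1), DESeq2 1.42.0, subsets of animals and leaving out each library. The tests were tried on simulated counts.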

Additional observations from a re-analysis of the deposited data

Results flagged for a closer look

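In control 1, Scn3a measured 11.6 CPM, far from the other 5 controls at 7.80 to 8.84 CPM, with a gap to the nearest of them of 0.722 of the group's range. In control 5, Scn11a made up 25.97% of the summed CPM per kb of the alpha genes, far from the other 5 controls at 24.5% to 25.0%, with a gap of 0.676 of the range. In all, 32 sets of 6 libraries were looked at in this way and 2 held such a library. Chance gives about 1 in 20.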

How the results depend on the processing

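The 9 sodium channel genes gave 0 calls in edgeR over 12 libraries and in both replicate sets. DESeq2 called 2 over 12 libraries (Scn2b and Scn10a), 1 in replicates 1 to 4 (Scn2b) and 1 in replicates 5 and 6 (Scn10a). Without the filter on low counts edgeR called 1 in each (Scn2b, Scn2b and Scn10a), and with libraries scaled to sensory neuron genes 1 over 12 libraries (Scn10a). Leaving out 1 library gave 0 calls throughout, with log2 fold changes of -0.64 to -0.49 for Scn2b and -0.26 to -0.18 for Scn10a. The causes of these changes, and of those below, were not tested.

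The count of all genes called over 12 libraries, 63, was 332 with DESeq2, 138 without the filter, 28 in tamoxifen-injected animals, 21 without control 6, iKO 5 and iKO 6, 4 with the term for Cre with tamoxifen and 1 in males. It ran from 23 to 88 when 1 library was left out, lowest without control 2, and was under 36 without control 1, 2, 3 or 5 or iKO 1, 5 or 6. In replicates 1 to 4 the count of 19 was 137 with DESeq2, 621 without the filter and 12 fitted alone, and 2 (without iKO 4) to 18 with 1 library left out, and under 10 without control 1, 2 or 3 or iKO 1, 3, 4, 5 or 6. In replicates 5 and 6 the count of 1 was 69 with DESeq2, 1014 without the filter, 2 with no covariate, 2 with DESeq2's size factors and 0 fitted alone, and 1 to 26 (without iKO 6) with 1 library left out, 6 without iKO 5, 4 without control 6 and 2 without control 3 or iKO 2. For the difference between the sets the count of 0 was 5 with DESeq2 and 578 without the filter, and 0 to 15 (without iKO 6) with 1 library left out. By sex the count of 18 was 50 with DESeq2, 33 without the filter and 11 (without control 1 or iKO 6) to 15 with 1 library left out.

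The labels do not say what a shared replicate number means, and libraries were not treated as pairs in the main tests. The correlation of deviations between same-numbered libraries was over 0.1 in 4 of 6 pairs, from -0.40 to 0.326, and 1 library correlated best with its own number. With a replicate block 15 genes were called over 12 libraries, and 8 in replicates 1 to 4 fitted alone. The block turned the log2 fold change of Scn3b to 0.010 and that of Scn9a to 0.0017.

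Estimates near 0 changed sign. Over 12 libraries Scn11a was -0.082 in males and -0.014 with the term for Cre with tamoxifen, Scn1a was -0.047 with that term and Scn3b was 0.012 in males. Without control 6, iKO 5 and iKO 6, Scn8a was 0.040 and Scn9a 0.023, and Scn9a was 0.0011 with no covariate. In replicates 1 to 4 Scn8a was -0.021 with no covariate. By sex, without the filter, Scn10a was 0.0052 and Scn8a 0.0073, and Scn8a was 0.00020 with DESeq2 and 0.00035 with its size factors. Leaving out 1 library gave ranges across 0 over 12 libraries for Scn11a (-0.027 to 0.068), Scn3b (-0.049 to 0.0067), Scn8a (-0.065 to 0.012) and Scn9a (-0.084 to 0.027). In replicates 1 to 4 it did so for Scn8a (-0.0041 to 0.060) and Scn9a (-0.082 to 0.11), and in replicates 5 and 6 for Scn11a (-0.28 to 0.031), Scn3b (-0.027 to 0.14), Scn8a (-0.15 to 0.055) and Scn9a (-0.12 to 0.029). For the difference between the sets it did so for Scn1a (-0.028 to 0.15), Scn4b (-0.030 to 0.21), Scn8a (-0.032 to 0.17), Scn9a (-0.037 to 0.15) and Prdm12 (-0.90 to 0.32), and by sex for Scn10a (-0.043 to 0.035), Scn2b (-0.086 to 0.093), Scn3b (-0.0047 to 0.056) and Scn8a (-0.038 to 0.025).

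Without the division by length, the shares in controls and iKO were 36.0% and 32.1% for Scn10a, 16.2% and 17.2% for Scn11a, 10.8% and 12.4% for Scn1a, 0.363% and 0.48% for Scn3a, 14.3% and 14.6% for Scn8a, and 22.4% and 23.3% for Scn9a. The lowest library held 130 reads of Scn3a and at least 811 of each other member.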
